A study of Mus musculus with 7 samples.

Results

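A set of 9 genes was chosen for how far their messenger RNA stood apart in mouse eye samples without Agbl5: Lrrc2, Gm43535, Antxr2, Cerkl, Zfyve28, Glb1l3, Rabgef1, Fam3c and Ranbp6. They are 9 of 54532 genes in the deposited table. Each lay outside the glial and immune lists, was picked from the strongest changes, and had its 3 knockout values all above or all below the 4 control values. The same 7 columns that chose them are the only measurements of them, so their differences between knockout and control libraries are descriptions and carry no test. RNA sequencing covered 3 knockout, 2 heterozygous and 2 wildtype libraries, all labelled as eyeball, while the extraction text spoke of retina. The labels gave the genotypes as knockout, heterozygous and wildtype for Agbl5, whose product CCP5 removes glutamate branches from tubulin. How the allele was made, the strain, the age and whether replicates of a genotype were separate animals were not given, so p-values measure the spread between these libraries, which may be technical. The controls below are the heterozygous and wildtype libraries together, and so include libraries with 1 altered Agbl5 allele.

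Values are FPKM, read fragments scaled by gene length and by a size for each library, which can be compared between genes because they are per length. Whole reads behind them could be recovered, 12244707 to 14339701 per library, and 1 read on a gene of 1 kilobase was worth 0.0663 to 0.0766 FPKM. The sizes behind the columns tracked a median-of-ratios factor of these reads, the typical ratio of a gene's reads to its mean over libraries. Size over factor was 13879760 to 13896683 in all 7 libraries. Agbl5 (ENSMUSG00000029165) was at 1.53, 1.73 and 1.26 FPKM in knockout 1, 2 and 3, at 4.21 and 5.34 in heterozygous 1 and 2 and at 9.89 and 8.57 in wildtype 1 and 2. The 3 genotypes did not overlap, in the order of the labels. Heterozygous 1 and knockout 1 were rich in lens transcripts, with 3429 and 5783 FPKM summed over 11 lens markers against 4.14 to 38.0 in the other 5 libraries. Y-linked transcripts were at 0 in knockout 3 and wildtype 2 alone. Rod markers summed to 8562 to 10455 FPKM over all libraries, and 6 corneal markers to at most 6.37.

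The 9 genes do not form 1 pathway. Lrrc2 encodes a leucine-rich repeat protein best known from heart muscle, and Gm43535 is a predicted transcript inside the Lrrc2 gene. Antxr2 encodes a cell surface receptor that binds matrix proteins and lets anthrax toxin enter cells. Cerkl encodes a relative of ceramide kinase, and its human counterpart is mutated in recessive retinitis pigmentosa and cone-rod dystrophy. Zfyve28 and Rabgef1 act at early endosomes: Zfyve28 is a FYVE domain protein that limits signalling by the epidermal growth factor (EGF) receptor, and Rabgef1 (Rabex-5) switches on the GTPase Rab5. Glb1l3 belongs to the beta-galactosidase family, Fam3c encodes a small secreted cytokine-like protein, and Ranbp6 encodes an importin-like protein, also described as a brake on the EGF receptor.

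All 9 genes had a mean of at least 1 FPKM and were among the 15472 genes tested. The 5 higher genes were Lrrc2, Gm43535, Antxr2, Cerkl and Zfyve28, and the 4 lower ones Glb1l3, Rabgef1, Fam3c and Ranbp6. Knockout and control values failed to overlap in 13.0% of all tested genes, 6.75% with knockout above and 6.26% with knockout below. An adjusted p under 0.05 in limma was reached by 9 of 9 members and by 0.614% of all tested genes, 0.465% higher and 0.149% lower, and since the members were picked on that contrast nothing is read from their count. The rule set no fold, but among the members Ranbp6 had the narrowest gap relative to its control mean, 14.0%, with 21.7 FPKM in its highest knockout and 25.4 FPKM in its lowest control library. Just outside, the gene with the smallest p whose groups overlapped was Klc3, at 29.4 FPKM in its lowest knockout and 29.7 FPKM in its highest control library. In whole tissue, fewer cells of a type and less RNA per cell cannot be told apart.

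**Figure D1:**
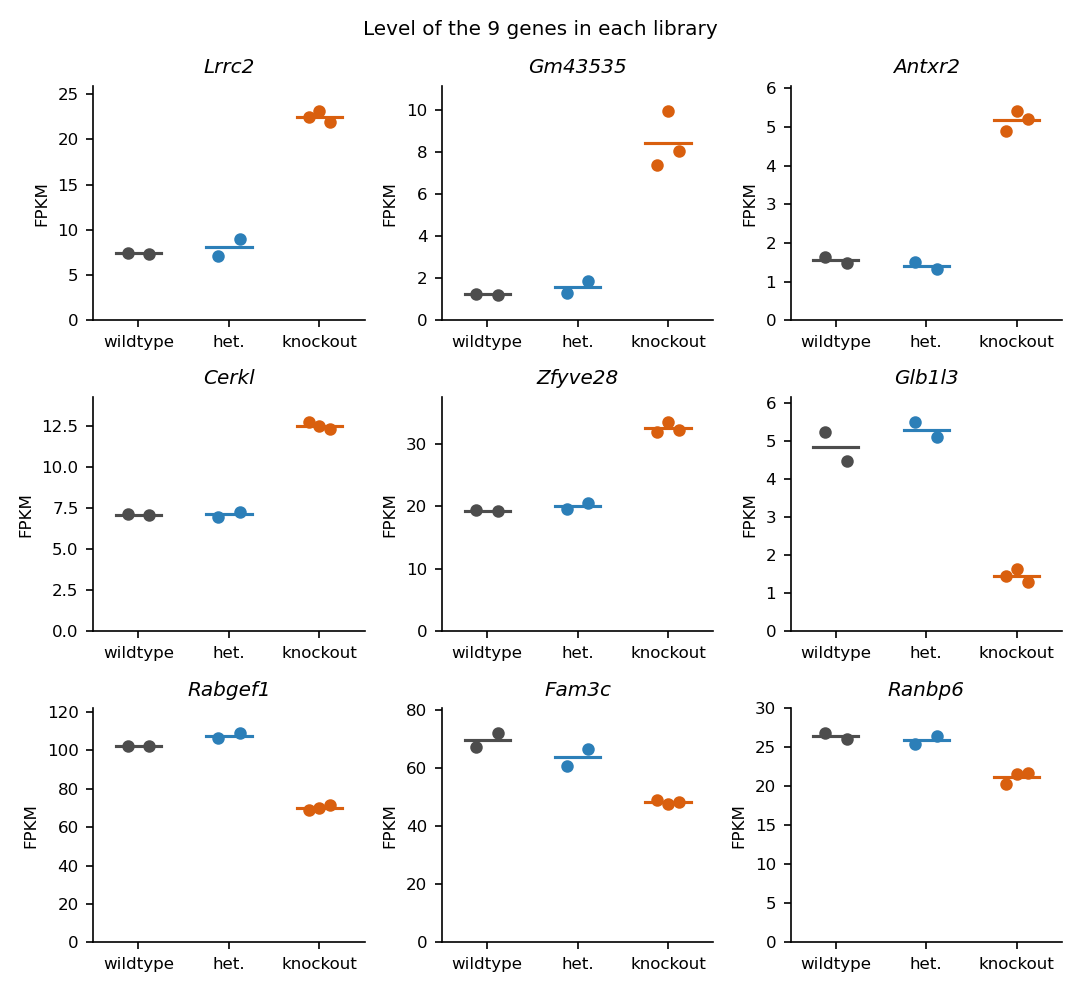
FPKM (linear axis from 0) of each of the 9 genes in every library. Points are libraries and lines are the genotype means. The 3 knockout points lie apart from all 4 controls in each panel, as the choice of genes required. The heterozygous points lie nearer the wildtype than the knockout ones, but do not overlap wildtype in Gm43535, Zfyve28, Rabgef1 and Fam3c.

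Lrrc2 and Glb1l3 are members on chromosome 9 that stood apart in opposite directions, so the 250 bases before their RefSeq start sites (GRCm38.p6) are shown, chr9:110951295-110951544 on the plus strand for Lrrc2 and chr9:26860824-26861073 on the minus strand for Glb1l3. The window of Fam3c, chr6:22356082-22356331 on the minus strand, is added because no other member's window held an E-box, marked by capitals.
Lrrc2: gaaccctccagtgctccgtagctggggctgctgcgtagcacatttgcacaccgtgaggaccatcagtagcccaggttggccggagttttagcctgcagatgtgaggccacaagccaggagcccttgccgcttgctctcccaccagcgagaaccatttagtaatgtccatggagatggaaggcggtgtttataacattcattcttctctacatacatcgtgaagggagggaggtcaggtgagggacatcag
Glb1l3: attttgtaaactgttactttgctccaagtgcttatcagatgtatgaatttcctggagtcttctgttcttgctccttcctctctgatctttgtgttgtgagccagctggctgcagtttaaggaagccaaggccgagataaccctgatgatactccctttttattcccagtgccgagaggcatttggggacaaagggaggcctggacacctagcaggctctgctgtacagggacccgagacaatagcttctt
Fam3c: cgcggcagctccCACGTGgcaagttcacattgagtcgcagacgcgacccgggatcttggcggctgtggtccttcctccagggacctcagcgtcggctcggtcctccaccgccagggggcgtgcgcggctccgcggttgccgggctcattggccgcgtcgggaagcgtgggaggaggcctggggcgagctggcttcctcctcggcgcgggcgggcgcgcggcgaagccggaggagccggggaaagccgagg

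Promoter windows were found for 8 of the 9 members, 10 windows in all because Rabgef1 has 3 starts. They were searched on both strands for the core site of the photoreceptor factor CRX (TAATCC), the STAT palindrome (TTCNNNGAA) and the E-box CACGTG, which do not overlap each other in any window. The STAT palindrome was in 0 of the 10 windows and in 7.01% of 32817 promoters of the same length. The CRX core was in 1 window, that of the third Rabgef1 start, 25 bases upstream, and in 6.25% of all promoters. The E-box began 238 bases upstream of Fam3c and was in 6.02% of all promoters. GC content ran from 40.8% to 76.8% over the 10 windows, with 54.8% for Lrrc2 and 48.0% for Glb1l3.

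Lrrc2 (ENSMUSG00000032495, chromosome 9, from 110951545 to 110984066, plus strand, GRCm38, with 3757 bases in 10 merged exons) was higher in knockout libraries by a factor of 2.91. It was at 22.5, 23.1 and 21.9 FPKM in knockout 1, 2 and 3, at 7.10 and 9.01 in heterozygous 1 and 2 and at 7.48 and 7.36 in wildtype 1 and 2. The lowest knockout value was 2.43 times the highest control, which was heterozygous 2. Means were 22.5 ± 0.626 FPKM in knockout (SD, n = 3), 8.06 ± 1.35 in heterozygous (n = 2) and 7.42 ± 0.0846 in wildtype (n = 2). The gene thus moved from about the middle of all tested genes in controls, at the percentile 54.5, to the percentile 86.4 in knockout. These levels rest on 1118 to 1225 reads per knockout library and 377 to 442 per control library.

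Gm43535 (ENSMUSG00000106234), annotated as a locus to be experimentally tested, is a single-exon model of 164 bases on the same strand as Lrrc2, from 110974432 to 110974595. It overlaps 0 exons of Lrrc2 and lies in the intron between merged exons 7 and 8, 4273 bases after one and 4875 bases before the other, so the 9 members stand for 8 loci. Its model sequence in GENCODE is shown because the gene has no known product, with capitals on a 15-base unit that occurs 2 times in a row, from base 89 to 118.
Gm43535: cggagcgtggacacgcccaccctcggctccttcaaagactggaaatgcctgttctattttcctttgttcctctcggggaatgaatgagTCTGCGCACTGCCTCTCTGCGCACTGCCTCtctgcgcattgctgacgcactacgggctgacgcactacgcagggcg

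Gm43535 was at 7.37, 9.94 and 8.03 FPKM in knockout 1, 2 and 3, at 1.30 and 1.87 in heterozygous 1 and 2 and at 1.25 and 1.21 in wildtype 1 and 2. The controls lay just above the filter of 1 FPKM. The values stand for few reads: 16, 23 and 18 in the knockout libraries and 3 or 4 in each control. Summed and scaled by library size, 57 knockout and 13 control reads gave a ratio of 6.08, given as a description. Per 100 Lrrc2 reads there were 1.43 to 1.88 Gm43535 reads in knockout and 0.719 to 0.905 in control libraries, without overlap. Both genes were chosen on these same libraries, and Gm43535 had the larger factor, so this too is a description and carries no test. Strand was not recorded, and reads from unspliced Lrrc2 RNA and from a separate transcript cannot be told apart here.

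The nearest tested gene beyond Lrrc2, the predicted transcript Gm10030, begins 5433 bases past it on the same strand. It was at 2.10, 2.99 and 3.27 FPKM in knockout 1, 2 and 3 and at 1.28 to 1.67 FPKM in the 4 controls, which the knockout libraries did not overlap. The difference of 0.63 ± 0.13 (log2, SE) did not pass in limma (adjusted p = 0.122) and passed with voom on recovered reads (0.95, adjusted p = 0.0288). It was named after its values were seen. On the other side Pth1r, the parathyroid hormone receptor gene 204400 bases away, was at 1.32 and 1.10 FPKM in knockout and controls (adjusted p = 0.625). The knockout libraries were thus the highest for 3 neighbouring models, 2 of them chosen for it.

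**Figure D2:**
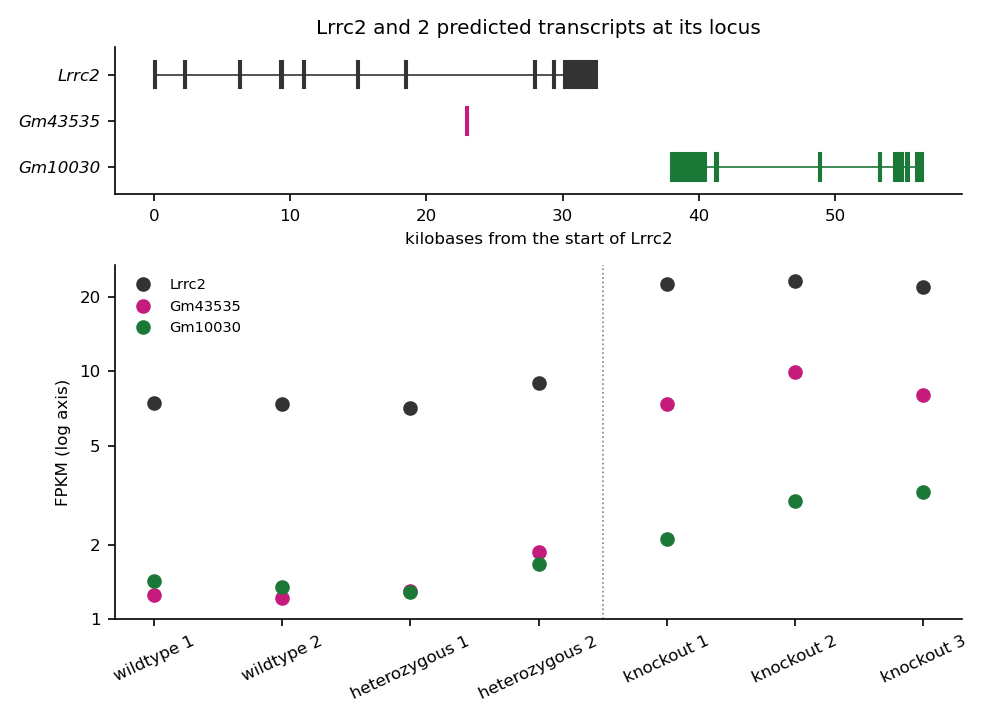
Top, merged exons of Lrrc2, Gm43535 and Gm10030 by distance from the start of Lrrc2, in kilobases. Bottom, FPKM of the 3 models in each library (log axis), with a dotted line between the controls and the 3 knockout libraries. Gm43535 and Gm10030 lie close together at 1.21 to 1.87 FPKM in controls, and Gm43535 is above Gm10030 in every knockout library.

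Heart and skeletal muscle markers were checked because Lrrc2 is known from muscle. Of 12 such markers 2 were at 0 in every library and 3 were abundant enough to test. The sum over the list was 7.98 to 8.95 FPKM in knockout and 5.14 to 5.54 FPKM in control libraries. Tnnt2, the cardiac troponin T gene, carried that gap: the other 11 summed to 4.63 to 5.23 FPKM in knockout and 4.75 to 5.28 FPKM in control libraries, which overlap. Tnnt2 alone of the 3 was called (3.52 ± 0.199 against 0.362 ± 0.0776 FPKM, n = 3 and 4; log2 difference 1.73 ± 0.10, SE; limma adjusted p = 0.000411), and since its controls were below 1 FPKM it was tested only because its knockout level was high. In the list of the PGC-1 network, which drives mitochondrial biogenesis, and cardiac leucine-rich repeat genes, limma called 0 of 12 tested genes, with 0 at an unadjusted p under 0.05. Its median difference was -0.03 beside 0.00 for all tested genes. Those with the smallest p were Esrrg (16.3 against 17.6 FPKM, adjusted p = 0.558) and Lrrc1 (9.15 against 9.67 FPKM, adjusted p = 0.576).

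Antxr2 (ENSMUSG00000029338, chromosome 5, 97882783 to 98031043 on the minus strand, 20 merged exons over 6655 bases) was higher in knockout libraries by a factor of 3.47. It was at 4.91, 5.41 and 5.21 FPKM in knockout 1, 2 and 3, at 1.5 and 1.32 in heterozygous 1 and 2 and at 1.64 and 1.49 in wildtype 1 and 2. The lowest knockout library was 2.99 times the highest control, and heterozygous and wildtype values overlapped. The other cell surface receptor of the family, Antxr1, was at 2.98, 1.94 and 2.22 FPKM in knockout and at 1.94 to 4.12 in control libraries, with its highest value in heterozygous 1 (log2 difference -0.09 ± 0.20, adjusted p = 0.886). In the coding sequence the 2 receptors are 66.1% identical and share no stretch of 50 bases. Among 15 tested genes of the family and its matrix ligands limma called 0, with 0 at an unadjusted p under 0.05 and a median of 0.06. The groups failed to overlap in none of them, beside 13.0% of all tested genes. The smallest p values were those of the matrix protease gene Mmp2 (8.05 against 6.92 FPKM, adjusted p = 0.435) and the protease gene Furin (8.43 against 7.92 FPKM, adjusted p = 0.611).

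Cerkl (ENSMUSG00000075256, chromosome 2, 79330543 to 79456785 on the minus strand, 18 merged exons over 5284 bases) was higher by a factor of 1.76. It was at 12.7, 12.5 and 12.3 FPKM in knockout 1, 2 and 3, at 6.98 and 7.26 in heterozygous 1 and 2 and at 7.12 and 7.09 in wildtype 1 and 2. The spread was small in both groups, with a coefficient of variation of 1.77% over knockout and 1.64% over control libraries. Exons of Itga4 on the opposite strand cover 21.3% of the Cerkl model and those of Neurod1 on the same strand 3.804%. Itga4 averaged 8.60 FPKM and Neurod1 138 FPKM, far above Cerkl, so part of the Cerkl reads could be shared or dropped. Cerk, which encodes ceramide kinase itself, was at 35.7 to 41.5 FPKM in knockout and 35.8 to 40.0 FPKM in control libraries (0.02 ± 0.07, adjusted p = 0.925). Of 28 tested ceramide and sphingolipid enzymes limma called 0, with 3 at an unadjusted p under 0.05 and a median of -0.03. The lowest p values belonged to Sphk2, a sphingosine kinase gene (4.32 against 3.505 FPKM, adjusted p = 0.336), and Col4a3bp, the ceramide transfer protein gene (13.2 against 14.98 FPKM, adjusted p = 0.369).

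Zfyve28 (ENSMUSG00000037224, chromosome 5, 34194893 to 34288449 on the minus strand, 17 merged exons over 5756 bases) was higher by a factor of 1.65. It was at 31.8, 33.4 and 32.2 FPKM in knockout 1, 2 and 3, at 19.6 and 20.6 in heterozygous 1 and 2 and at 19.4 and 19.2 in wildtype 1 and 2. Both heterozygous libraries were above both wildtype libraries, by less than the distance to knockout. Exons of the predicted antisense gene Gm42848 cover 1.77% of the model. Zfyve28 is 3288 kb from Agbl5. Its neighbours were nearer their control levels, with Mxd4, 7173 bases away, at 12.8 and 12.2 FPKM in knockout and controls (0.06 ± 0.06, adjusted p = 0.734) and Cfap99, 151 bases away, at 1.63 and 1.34 FPKM (0.17 ± 0.14, adjusted p = 0.650). Antxr2 and Rabgef1 lie on the same chromosome, 66976 and 99265 kb from Agbl5. Chromosome 5 thus held 3 of the 9 members and 6.91% of tested genes. It also held 8 of the 95 genes called over the table (8.42%), and these 8 include the 3 members and Agbl5.

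The 4 lower genes were led by Glb1l3 (ENSMUSG00000031966, chromosome 9, 26817953 to 26860890 on the minus strand, 22 merged exons over 2618 bases). It was at 1.44, 1.62 and 1.28 FPKM in knockout 1, 2 and 3, at 5.49 and 5.09 in heterozygous 1 and 2 and at 5.22 and 4.46 in wildtype 1 and 2. Controls were higher by a factor of 3.49 in the mean, and the lowest control was 2.74 times the highest knockout library. The reads were 46 to 60 per knockout and 174 to 203 per control library. From the percentile 42.8 of all tested genes in controls it came down to 9.003 in knockout, the reverse of Lrrc2.

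Glb1l2, a family member that lies 11485 bases from Glb1l3, was at 28.4, 25.7 and 27.3 FPKM in knockout 1, 2 and 3 and at 31.0 to 34.5 FPKM in the controls. The groups did not overlap, but the difference of -0.24 ± 0.06 did not pass (limma adjusted p = 0.173). The coding sequences of Glb1l3 and Glb1l2 are 67.2% identical, with no shared stretch of 50 bases. Glb1, the lysosomal beta-galactosidase gene, was at 3.30 ± 0.602 FPKM in knockout (n = 3) and 3.32 ± 0.239 in controls (n = 4; adjusted p = 0.962), and Glb1l at 5.57 ± 0.265 and 5.32 ± 0.140 (adjusted p = 0.731). Acad8, on the other side of Glb1l3, was at 13.8 and 13.7 FPKM (adjusted p = 0.981). Limma called 0 of 18 genes of the family and of lysosomal glycosidases, with 6 at an unadjusted p under 0.05 and a median of 0.08. Knockout values lay above all controls in 6 of them and below in 1, Glb1l2, together 38.9% of the list beside 13.0% of all tested genes.

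Rabgef1 (ENSMUSG00000025340, chromosome 5, 130171798 to 130214342 on the plus strand, 9 merged exons over 4168 bases) was the most abundant member. It was at 68.7, 70.0 and 71.7 FPKM in knockout 1, 2 and 3, at 106 and 109 in heterozygous 1 and 2 and at 102 in both wildtype libraries. Controls were higher by a factor of 1.496, and the heterozygous libraries were the highest of all, above both wildtype ones. Its partners were near their control levels: Rab5a, the GTPase it activates, was at 10.2 ± 0.942 and 10.4 ± 1.07 FPKM in knockout and controls (n = 3 and 4; adjusted p = 0.963), and Rabep1, its binding partner rabaptin-5, at 14.7 ± 0.411 and 14.7 ± 0.914 (adjusted p = 0.996). Of 26 tested genes of Rab5 and the early endosome limma called 0, with 2 at an unadjusted p under 0.05 and a median of -0.01. Those 2 were Appl1, a Rab5 effector gene (16.0 against 18.3 FPKM, adjusted p = 0.292), and Rab5c (45.8 against 41.4 FPKM, adjusted p = 0.382). Zfyve9, another FYVE domain gene, was at 11.8 and 12.7 FPKM (adjusted p = 0.555).

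Fam3c (ENSMUSG00000029672, chromosome 6, 22306520 to 22356243 on the minus strand, 14 merged exons over 3713 bases) was at 48.9, 47.7 and 48.2 FPKM in knockout 1, 2 and 3, at 60.7 and 66.7 in heterozygous 1 and 2 and at 67.1 and 72.0 in wildtype 1 and 2. Controls were higher by a factor of 1.38. The 2 heterozygous libraries lay between the knockout and wildtype ones and overlapped neither. Of its family, Fam3a was at 13.7 to 15.6 FPKM in knockout and 13.5 to 15.5 FPKM in controls (0.03 ± 0.07, adjusted p = 0.903), and Fam3b was listed at 0 in all 7 libraries. Limma called 0 of 5 tested genes of the FAM3 and LIF receptor list, with 2 at an unadjusted p under 0.05. Those were Il6st, the gp130 receptor subunit gene (14.4 against 10.97 FPKM, 0.36 ± 0.07, adjusted p = 0.101), and Pomgnt1, a glycosyltransferase gene (13.4 against 11.1 FPKM, 0.26 ± 0.06, adjusted p = 0.133), both with every knockout library above every control. Il6st passed in 2 of 17 alternatives, without heterozygous 1 (limma adjusted p = 0.0332) and with voom on recovered reads (0.0242). Its largest adjusted p was 0.324, on the TPM scale.

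Ranbp6 (ENSMUSG00000074909, chromosome 19, 29808400 to 29812974 on the minus strand), a gene with 1 exon of 4575 bases, had the smallest difference of the 9. It was at 20.3, 21.6 and 21.7 FPKM in knockout 1, 2 and 3, at 25.4 and 26.5 in heterozygous 1 and 2 and at 26.8 and 26.1 in wildtype 1 and 2. Controls were higher by a factor of 1.24. Its closest relative among the importins, Ipo5, rose: it was at 36.7, 35.0 and 34.5 FPKM in knockout 1, 2 and 3, at 29.0 and 26.5 in heterozygous 1 and 2 and at 25.3 and 26.9 in wildtype 1 and 2. The difference was 0.38 ± 0.06 (log2, SE; limma adjusted p = 0.0371), with all 3 knockout libraries above all controls.

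The Ipo5 call was fragile. It was lost without knockout 1 (Ipo5 adjusted p = 0.179), knockout 2 (0.163), knockout 3 (0.117), heterozygous 2 (0.110), wildtype 1 (0.0815) or wildtype 2 (0.137), without both lens-rich libraries (0.0924), with the replicate block (0.207) and on the TPM scale, where it stood at 0.27 (adjusted p = 0.276). It was also lost with no filter (limma adjusted p = 0.0572), in limma without the mean-variance trend (0.0702) and with the Y-linked level as covariate (0.0860). The call held in 5 of 17 alternatives, with log2 differences from 0.27 to 0.42. Over the aligned coding bases the pair is 77.3% identical, and the longest stretch they share is 26 bases, which bears on whether a read can match both genes.
Ranbp6 and Ipo5: catgaagacccctgtgccaaacgcct
They share no stretch of 50 bases. The length of the reads is not given in the sources used here. Of 30 tested nuclear transport receptors and genes of the Ran cycle Ipo5 alone was called (background for a rise, 0.465%), with 6 at an unadjusted p under 0.05 and a median of -0.03.

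**Figure D3:**
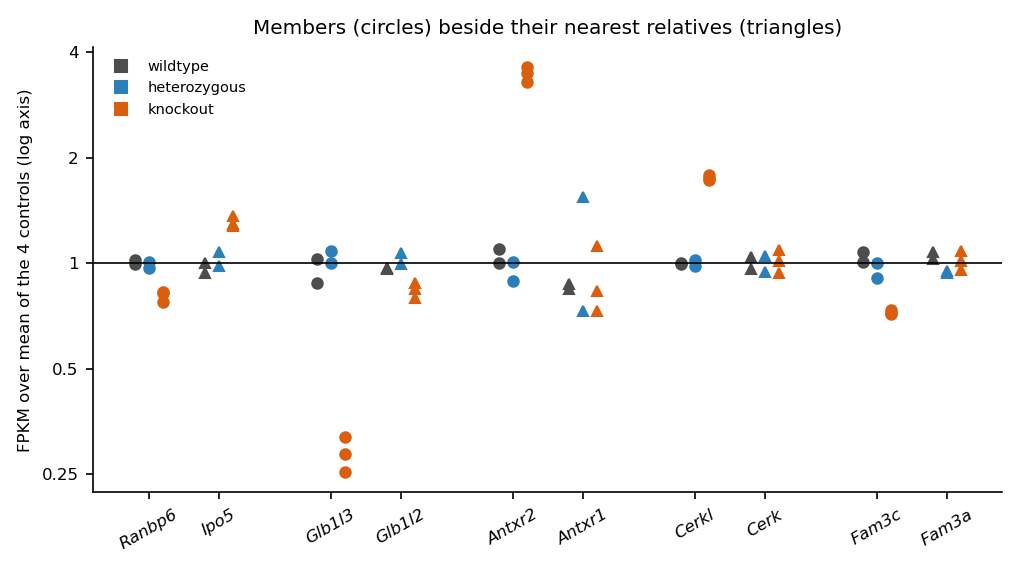
FPKM of each library over the mean of the 4 controls (log axis) for 5 members, as circles, and their nearest relatives, as triangles, coloured by genotype. Knockout libraries lie below the controls for Ranbp6 and above them for Ipo5, while Antxr1, Cerk and Fam3a overlap their controls and Glb1l2 lies below them by less than Glb1l3.

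Zfyve28 and Ranbp6, both described as limiting EGF receptor signalling, differed in direction, the first higher and the second lower in knockout. The receptor gene Egfr was at 2.15 ± 0.152 FPKM in knockout (n = 3) and 1.91 ± 0.195 in controls (n = 4; 0.12 ± 0.09, adjusted p = 0.638). Of 19 tested genes of the receptor family, its ligands and its regulators, 1 rose: Btc, the gene of the ligand betacellulin. It was at 6.07, 5.61 and 6.05 FPKM in knockout 1, 2 and 3 and at 1.98 to 3.14 in the 4 controls, where wildtype 2 was highest (0.98 ± 0.11, limma adjusted p = 0.0107). That call was lost without knockout 1 (Btc adjusted p = 0.0655), knockout 2 (0.0543) or knockout 3 (0.0602), without both lens-rich libraries (0.136) and when replicate numbers entered as a block (0.111), with log2 differences from 0.90 to 1.24 over its alternatives. The median of the list was -0.00 and Ptpn1, a phosphatase gene, was the only other with an unadjusted p under 0.05 (adjusted p = 0.389).

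Over the 9 pathway lists together limma called 2 of 184 tested genes, Ipo5 and Btc, both higher in knockout, beside 0.614% of all tested genes. Knockout values lay above all controls in 17 of the 184 and below in 19, together 19.6% beside 13.0% of all tested genes. By list that share ran from 0% for the anthrax toxin receptor list to 40% for the 5 tested genes of FAM3 and LIF receptor. It was 19.2% for Rab5 and the early endosome and 26.7% for nuclear transport. The share of all tested genes at an unadjusted p under 0.05 between knockout and controls was not counted, so such counts in the lists have no background. None of the 16 nearest tested neighbours of the members was called. Voom on recovered reads called 4 list genes, Ipo5, Btc, Fam161a and Il6st, and 1 neighbour, Gm10030.

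The order of heterozygous and wildtype libraries was not used to choose the members, although a choice that asks for controls on one side favours controls that lie close together. Limma called 0 of 15472 genes between these genotypes, 0% of those tested, with 619 at an unadjusted p under 0.05. The altered gene Agbl5 was among those not called, at means of 4.78 FPKM in heterozygous and 9.23 FPKM in wildtype libraries. The contrast thus missed a gene known to differ, and the absence of calls cannot show that the members were unchanged. None of the 9 members had an unadjusted p under 0.05. Their median absolute log2 difference was 0.09, as in all tested genes (0.09). The largest was that of Gm43535, at 0.20 with a 95% interval from -0.19 to 0.59.

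Lrrc2 was 0.10 higher in heterozygous than in wildtype libraries (95% interval -0.15 to 0.35), where knockout was 1.48 higher. For Glb1l3 the interval ran from -0.17 to 0.39, where knockout was at -1.25. Cerkl had the smallest difference, 0.00 (interval -0.15 to 0.16), beside 0.74 in knockout. For Fam3c, the member with the largest share of its knockout difference in heterozygous libraries, 24.4%, the values were -0.13 (interval -0.30 to 0.04) and -0.52. Agbl5 itself was at -0.83 (interval -1.17 to -0.48) in heterozygous and -2.03 in knockout libraries. Both differences are taken against the same 2 wildtype libraries, and the choice of members asked that knockout lie beyond the heterozygous libraries too.

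The heterozygous mean lay on the knockout side of wildtype in 6 of 9 members: Lrrc2, Gm43535, Cerkl, Zfyve28, Fam3c and Ranbp6. The same held for 42.0% of all tested genes, for 34.8% of the 2014 genes whose knockout and control values did not overlap and for 51.6% of the 95 called genes. Both of these last sets include the members. The count of 6 members became 5 on the TPM scale, with the lens level or with the Y-linked level, and 4 without heterozygous 2. Lrrc2 was counted only through heterozygous 2, since heterozygous 1 (7.10 FPKM) was below both wildtype libraries. Heterozygous and wildtype values failed to overlap in 4 members, Gm43535, Zfyve28, Rabgef1 and Fam3c, and in 30% of all tested genes. In Rabgef1 the heterozygous libraries lay on the far side of wildtype from knockout.

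**Figure D4:**
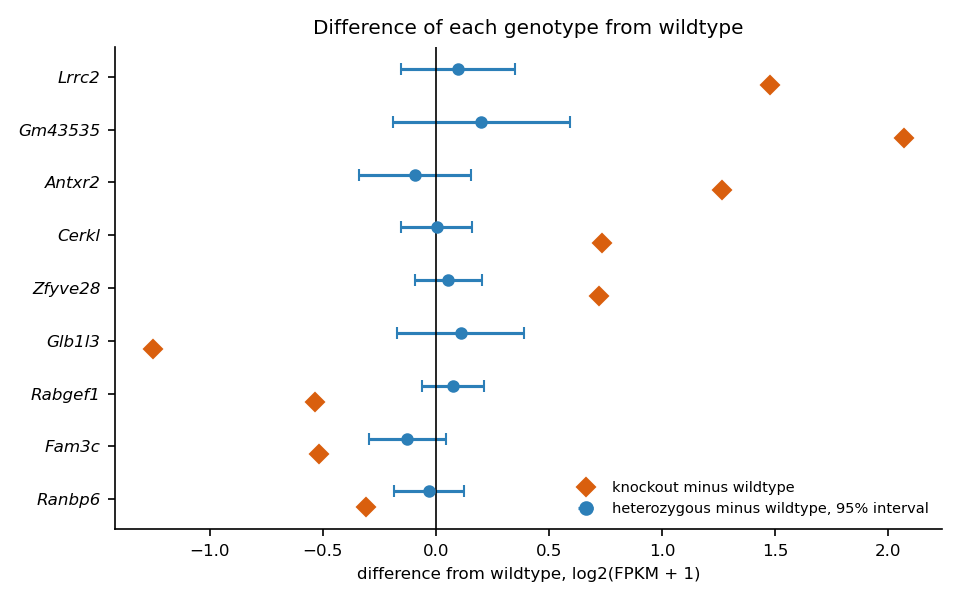
Difference from wildtype on the log2(FPKM + 1) scale for each member. Diamonds are knockout minus wildtype, given without error because the genes were chosen on knockout; circles are heterozygous minus wildtype with limma's 95% interval. Each interval spans 0, and the diamonds lie apart from it because the choice of genes asked for separation from all controls.

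In controls the order of levels per length ran from Rabgef1 (105 ± 3.31 FPKM, SD, n = 4) and Fam3c (66.6 ± 4.66) through Ranbp6 (26.2 ± 0.616) and Zfyve28 (19.7 ± 0.618) to Lrrc2 (7.74 ± 0.864), Cerkl (7.11 ± 0.117), Glb1l3 (5.07 ± 0.438), Antxr2 (1.49 ± 0.131) and Gm43535 (1.41 ± 0.310). Lrrc2 and Cerkl overlapped, as did Antxr2 and Gm43535, and the other neighbours in that order did not. In knockout libraries Zfyve28 (32.5 ± 0.852, n = 3) and Lrrc2 (22.5 ± 0.626) stood above Ranbp6 (21.2 ± 0.801), and Glb1l3 (1.45 ± 0.170) was the lowest. The control coefficient of variation ran from 1.64% for Cerkl to 22.0% for Gm43535, with a median of 6.99% beside 10.2% for all tested genes.

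Other transcripts also set the knockout libraries apart, and because the members were chosen to do so, their moving together is not a result. Limma called 6 of 10 reactive glia markers higher, beside 0.465% of all tested genes. Their sum was 160 to 227 FPKM in knockout and 55.3 to 107 in control libraries. Both upper ends were the lens-rich libraries, knockout 1 beside 184 and 160 FPKM in knockout 2 and 3, and heterozygous 1 beside 55.3 to 59.6 FPKM in the other controls. Microglia markers rose in 4 of 7 tested, with sums of 35.8 to 38.5 and 16.6 to 19.5 FPKM. Rod markers were called in 0 of 8, yet their sum was lower in every knockout library, at 8562 to 8828 against 9371 to 10455 FPKM. The part of these cell types in the levels of the 9 genes was not tested. Mueller glia, cone, bipolar, amacrine, ganglion, horizontal, vascular, red blood cell and pigment epithelium sums overlapped between the groups. Of the single markers, 1 of 8 for Mueller glia and 1 of 8 for cones were called higher.

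Between knockout 1, rich in lens transcripts, and the mean of knockout 2 and 3 the log2 difference was 0.00 for Lrrc2, -0.00 for Glb1l3 and -0.25 for Gm43535, the largest of the 9. Without both lens-rich libraries the difference of Fam3c was -0.51 in place of -0.45.

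The genes most like each member were ranked by Pearson r of log2(FPKM + 1) over the 7 libraries, as a description. Since every member steps between 2 clusters of libraries, r mostly records that step, and knockout and control libraries are too few for an r within either. Rfx2, a transcription factor gene of ciliated cells, came first for Lrrc2 (r = 0.998), Gm43535 (0.998) and Zfyve28 (0.999), at 5.36, 6.15 and 5.35 FPKM in knockout 1, 2 and 3 and 1.40 to 1.75 in controls. Tnnt2 was second for Lrrc2 (0.991) and first for Cerkl (0.999), followed there by Stat3, a cytokine signalling factor gene (0.996). Jak3, a cytokine receptor kinase gene, was first for Antxr2 (1.00), with Prtg second (0.998), Mest was second for Gm43535 (0.988) and Agtpbp1 second for Zfyve28 (0.993). Hdc, the histidine decarboxylase gene, led for Glb1l3 (0.988), before Gas2 (0.979), and came second for Rabgef1 (0.982). Msh5 led for Rabgef1 (0.987) and Ranbp6 (0.989), with Spc25 second for Ranbp6 (0.983), and Optn (0.989) and Cep83 (0.983) were nearest to Fam3c.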

How the data were processed

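Messenger RNA of 7 libraries was measured by RNA sequencing. The authors deposited FPKM, 1 column per library. Per the submitters' processing notes the tools included HTSeq, DESeq, Bowtie2 2.0.6 and TopHat2 2.0.9, and the builds were mm10 and GRCm38; their order and settings are not given in the sources used here. The kit in the labels' protocols does not mark strand. Positions and exon lengths came from GENCODE M21 (54495 identifiers found). With these lengths 96.8% of values above 0 were whole reads within 0.01. The 15472 genes averaging 1 FPKM or more were tested as log2(FPKM + 1) with limma 3.58.1 in R 4.3.3 (moderated, mean-variance trend), p-values adjusted by Benjamini-Hochberg over all of them with 0.05 as threshold. Knockout against all controls used 2 groups, heterozygous against wildtype a fit of 3 genotypes. The fits were tested on simulated data. The members and lists were chosen with earlier results of these data known. Named were all members, called list genes or the 2 with the smallest p (1 of these is not reported here), chosen relatives, neighbours of Lrrc2, Glb1l3 and Zfyve28, and the 2 genes most like each member. Pth1r and the other neighbours are the nearest tested genes.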

Additional observations from a re-analysis of the deposited data

Results flagged for a closer look

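Among the 4 controls, Gm43535 in heterozygous 2 stood apart, at 1.87 FPKM against 1.21 to 1.30 FPKM in the other 3, with 0.875 of the whole range between it and the next library. The value rests on 4 reads where the others rest on 3. About 1 in 20 such groups would be picked out by chance, and no other member was.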

How the results depend on the processing

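The TPM scale moved the median tested gene by -0.12. Between knockout and controls 95 genes were called, and 63 on the TPM scale, 152 with voom on recovered reads, 48 without both lens-rich libraries, 38 with the replicate block, where knockout 3 has no partner and adds nothing, and 45 to 90 without 1 library. Between heterozygous and wildtype libraries 0 were called, 19 with no filter and 0 to 3 without 1 library, with 0 members among them in any run. List genes called were 2, and 1 with no filter, on the TPM scale, in limma without trend and with the Y-linked level, 4 with voom, 0 without both lens-rich libraries and with the block, and 0 to 3 without 1 library. Neighbours called were 0, and 1 with voom. Same-numbered libraries did not deviate together throughout (r from -0.02 to 0.43). With 2 libraries in each control genotype the deviations mirror each other, so these r cannot decide whether the numbers pair libraries. Small differences that never passed changed sign on the TPM scale in Glb1l (-0.0577), Rabep1 (-0.12), Cerk (-0.10), Furin (-0.0324), Fam3a (-0.0948), Mxd4 (-0.0574) and Acad8 (-0.11), with the block in Rab5a (0.0577), with the lens level in Rabep1 (-0.00314) and without both lens-rich libraries in Fam3a (-0.0387) and Acad8 (-0.0542). Without 1 library they ranged from -0.12 to 0.0759 for Glb1, -0.0725 to 0.0577 for Rab5a, -0.0249 to 0.0341 for Rabep1, -0.0330 to 0.0736 for Cerk, -0.21 to 0.0818 for Antxr1, -0.0179 to 0.0693 for Fam3a and -0.0584 to 0.0381 for Acad8. The cause was not tested. Depth limits Gm43535 most, at 3 or 4 reads per control library.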

Other observations

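Other genes of recessive retinitis pigmentosa, the disease of human CERKL, were read beside Cerkl. Limma called 0 of 31, with 12 at an unadjusted p under 0.05 and a median log2 difference between knockout and controls of -0.03. The share of all tested genes at that unadjusted p was not counted, so the 12 have no background. Knockout values lay below all controls in 8 and above them in 2, together 32.3% of the list beside 13.0% of all tested genes. Of the 8 lower ones Pde6a, Pde6b, Cnga1 and Nrl are also rod markers, whose sum was 8562 to 8828 FPKM in knockout and 9371 to 10455 FPKM in control libraries, and the part of rods in these levels was not tested. Fam161a, a ciliary protein gene, was at 78.6, 80.7 and 81.1 FPKM in knockout 1, 2 and 3 and at 94.0 to 105 FPKM in controls (-0.28 ± 0.05, SE; limma adjusted p = 0.0931). Impg2, a matrix proteoglycan gene of photoreceptors, was at 57.7 to 59.9 FPKM in knockout and 45.9 to 51.9 FPKM in controls (0.24 ± 0.05, adjusted p = 0.147).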
